A study of Mus musculus with 16 samples.

Results

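The genes described here are 33 genes of the cellular response to low oxygen that encode no glycolytic enzyme, chosen by name as known or likely targets of the hypoxia-inducible factors (HIFs). All 33 were found, in 38926 gene entries for the metaphysis and bone marrow libraries and for the Lats2 libraries and in 21603 for the Yap1/Taz libraries. RNA sequencing was done on endothelial cells (ECs) sorted from mouse bone on a C57BL/6 background, in 16 libraries and 3 separate comparisons. Wild-type ECs carrying a Cdh5-driven fluorescent reporter were taken from the metaphysis next to the growth plate (mpECs, 3 libraries) and from the diaphysis, the shaft that holds the bone marrow (bmECs, 3 libraries). ECs of Yap1flx/flx; Wwtr1flx/flx mice were compared between littermates without Cdh5CreERT2 (control, 3 libraries) and with it (labelled Yap1/Taz iΔEC, 3 libraries) at postnatal day 21, an age the labels give for these libraries alone. ECs of Lats2flx/flx mice were compared in the same way, without Cdh5CreERT2 (control, 2 libraries) and with it (Lats2 iΔEC, 2 libraries). Both groups of each mutant comparison therefore carried the floxed alleles, and recombination depended on tamoxifen and on a Cre that is driven by the endothelial Cdh5 promoter. The study's methods give an age of 3 weeks for the sorted ECs of all 3 comparisons. Wwtr1 encodes TAZ, which with YAP1 is a transcriptional co-activator that the kinase LATS2 restrains.

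In well-oxygenated cells, prolyl hydroxylases mark the HIF α subunits for VHL-dependent degradation, and in low oxygen the stabilised subunits pair with ARNT and bind DNA at a short core motif. The best-known output of HIF is the glycolytic programme, but the same factors also act on collagen modification, mitochondrial turnover, growth restraint, chromatin, redox balance and pH. In bone, type H vessels of the metaphysis and the sinusoidal vessels of the marrow differ in structure, blood flow and oxygenation.

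The labels were checked first. In the Yap1/Taz comparison, Yap1 was 1.07, 1.62 and 0.995 FPKM (fragments scaled by transcript length and library size) in control and 1.43, 1.03 and 0.989 FPKM in the libraries labelled Yap1/Taz iΔEC, and Wwtr1 was 10.01, 9.88 and 10.3 FPKM against 15.3, 19.6 and 19.5 FPKM. Wwtr1 was thus higher and not lower under the mutant label (log2 fold change 0.78, limma adjusted p = 0.0272), and the libraries are called "labelled Yap1/Taz iΔEC" throughout. Gene-level values do not show floxed exons apart from the rest of a gene. The study reports, by qPCR on freshly isolated bone ECs of such mutants, less Yap1 and Wwtr1 than in controls, and weaker Yap1 staining of their vessels. Whether the labels of this comparison are exchanged was not tested, and an exchange would turn every direction given for it. The YAP/TAZ targets Ctgf and Cyr61 were not called there and ran in opposite directions, Ctgf at 15.4 ± 6.06 FPKM in control and 8.98 ± 6.32 FPKM under the mutant label (log2 fold change -0.83, adjusted p = 0.282) and Cyr61 at 14.1 ± 2.54 and 19.9 ± 4.32 FPKM (0.46, adjusted p = 0.204, SD, n = 3). Lats2 was 23.4 and 24.0 FPKM in control and 19.2 and 19.2 FPKM in Lats2 iΔEC (adjusted p = 0.125), while Ctgf and Cyr61 were higher there by 2.61 and 3.50 on the log2 scale. Wwtr1 was called higher in Lats2 iΔEC too (log2 fold change 0.63, limma adjusted p = 0.0257). It measured 53.8 and 58.9 FPKM in control and 83.3 and 92.5 FPKM in Lats2 iΔEC. Cdh5, Pecam1 and the other 6 endothelial markers passed the filter on low values in all 3 comparisons. Their summed level differed between groups each time, at 1376 to 1688 FPKM in mpECs and 1801 to 1914 FPKM in bmECs (4 called higher, 2 lower), 472 to 509.7 FPKM in Yap1/Taz control and 615 to 709 FPKM under the mutant label (1 higher), and 2223 to 2393 FPKM in Lats2 control and 1806 to 2052 FPKM in Lats2 iΔEC (1 higher, 2 lower). Reads recovered from the values ranged from 11150835 to 14789613 per library for mpECs and bmECs, from 4885840 to 7160547 for the Yap1/Taz libraries and from 4742780 to 7077619 for the Lats2 libraries.

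Promoter sequence is shown for members whose expression differed in 2 comparisons and whose promoter holds the HIF core motif, which was searched as ACGTG or GCGTG on both strands. In 300 bases around the start site (250 before and 50 after, RefSeq, build GRCm38.p6), 24 of the 33 members had an entry, and 23 of these 24 (95.8%) held the motif in at least 1 promoter. The share was 46.7% of all 27025 genes with a promoter and 67.7% of the 8054 such genes that were tested in bmECs against mpECs, among which were 17 members, all with the motif. By single promoters, 28 of 34 promoters of members (82.4%) held the motif, beside 43.8% of all 32851 promoters. Since members were chosen as known or likely HIF targets, these shares are not independent of that choice. The motif letters mark a match and not a bound site. Capitals mark the matches in the following promoters, each written 5′ to 3′ on the strand of the gene.

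P4ha2, chr11:54100674-54100973, plus strand: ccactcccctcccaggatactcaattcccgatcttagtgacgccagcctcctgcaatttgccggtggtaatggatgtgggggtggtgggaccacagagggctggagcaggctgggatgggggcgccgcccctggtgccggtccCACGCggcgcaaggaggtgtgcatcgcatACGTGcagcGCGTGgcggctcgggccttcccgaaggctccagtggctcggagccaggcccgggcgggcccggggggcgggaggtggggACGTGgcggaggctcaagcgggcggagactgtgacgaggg
Cited2, chr10:17722978-17723277, plus strand: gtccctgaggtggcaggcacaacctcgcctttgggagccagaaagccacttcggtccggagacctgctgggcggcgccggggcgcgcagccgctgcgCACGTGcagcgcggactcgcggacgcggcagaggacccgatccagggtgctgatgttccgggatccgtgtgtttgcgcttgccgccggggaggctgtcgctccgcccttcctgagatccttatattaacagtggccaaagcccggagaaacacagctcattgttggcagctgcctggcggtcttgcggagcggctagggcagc
Apold1, chr6:134981751-134982050, plus strand: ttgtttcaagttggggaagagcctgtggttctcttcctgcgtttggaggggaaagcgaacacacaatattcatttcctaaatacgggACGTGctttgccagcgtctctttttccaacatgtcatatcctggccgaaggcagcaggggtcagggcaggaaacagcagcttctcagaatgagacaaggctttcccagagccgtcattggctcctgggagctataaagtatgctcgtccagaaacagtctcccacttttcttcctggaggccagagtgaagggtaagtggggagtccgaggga

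The P4ha2 promoter held 4 matches, starting 107, 78 and 69 bases before the start site and at base 11 after it. The Cited2 promoter held the palindrome in which the motif is read on both strands, starting 153 and 152 bases before the start, and the Apold1 promoter held a single match 163 bases before it. Plod2, Trf, Hmox1, Stc1, Loxl2, Ndrg1, Bhlhe40, Bnip3l and Lox are named without a promoter.

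Members were tested where the mean over the libraries of a comparison reached 1 FPKM. This left 26 of 33 in bmECs against mpECs, 27 in the Yap1/Taz comparison and 25 in the Lats2 comparison, with 24 tested in all 3. Bhlhe41, Rora, Stc2 and Tmem45a stayed under the filter in every comparison. A gene was called at an adjusted p under 0.05 from limma on log2(FPKM + 1), with Benjamini-Hochberg adjustment over all genes tested, and fold changes below are on that log2 scale, where low values are compressed and their changes look smaller. The study's methods describe biological replicates, but which animals or pools of animals gave each library is not given in the sources used here, and p-values measure the spread between these libraries. In all, 18 members were called in at least 1 comparison, 12 of them in 1 and 6 in 2. No member was called in all 3 comparisons, and 11 tested members were called in none.

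**Figure D1:**
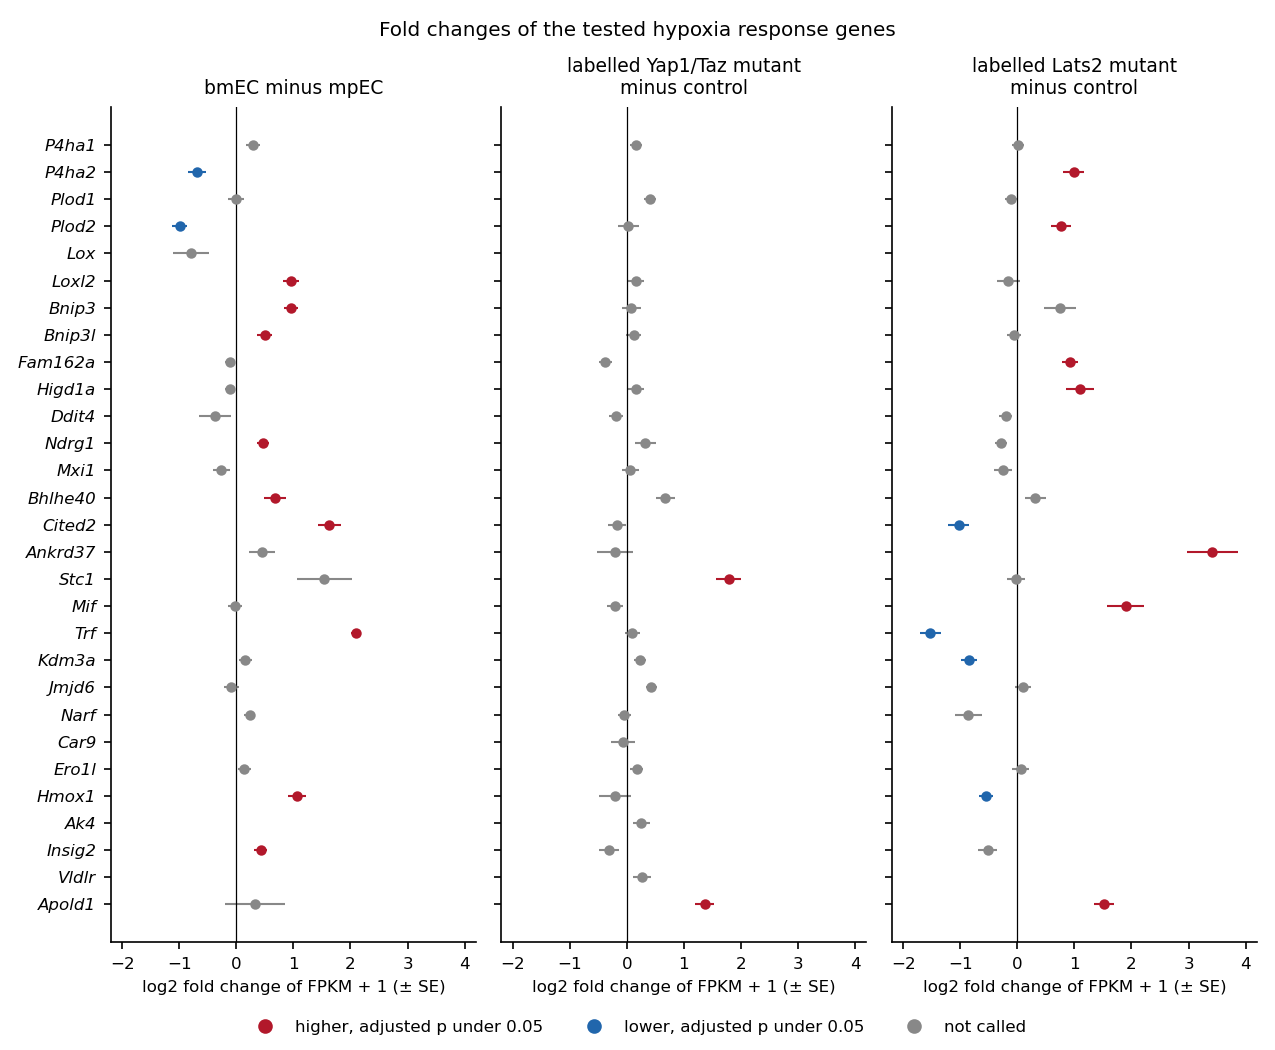
The log2 fold change of FPKM + 1 (x axis, with its standard error) of each tested member (rows) in the 3 comparisons, coloured by its call. P4ha2, Plod2, Cited2, Trf and Hmox1 have calls of opposite sign in the left and right panels, and in the middle panel Stc1 and Apold1 are the called members. A missing point is a member under the filter on low values.

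Between regions, bmECs had more Trf, Cited2, Hmox1, Bnip3, Loxl2, Bhlhe40, Bnip3l, Ndrg1 and Insig2 than mpECs, and less P4ha2 and Plod2. Of 26 tested members, 9 were higher in bmECs and 2 were lower, against 13.0% of all 11422 tested genes called higher and 10.5% called lower. The median log2 fold change of the 26 members was 0.27, and that of all tested genes was close to 0. The libraries of the 2 regions did not overlap for 10 members that were higher and 3 that were lower in bmECs, beside 22.1% and 19.2% of all tested genes. Bnip3, Bnip3l, Bhlhe40, Cited2, Ndrg1, Trf, Hmox1 and Stc1 also stand in expression panels that the study drew from these libraries, so their direction here is not independent evidence.

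The collagen enzymes divided by family member. Loxl2, a lysyl oxidase that cross-links collagen, measured 1.73, 2.61 and 2.17 FPKM in mpECs and 4.57, 5.40 and 5.46 FPKM in bmECs (log2 difference 0.96 ± 0.14, adjusted p = 0.00207). Values after ± are standard errors where they follow a log2 difference. Plod2, the lysyl hydroxylase of collagen telopeptides, ran the other way, with 5.25, 4.22 and 4.14 FPKM in mpECs and 1.51, 2.10 and 1.73 FPKM in bmECs (-0.99 ± 0.14, adjusted p = 0.00169). P4ha2, a catalytic subunit of collagen prolyl hydroxylase, measured 3.65, 2.31 and 2.67 FPKM in mpECs and 1.25, 1.56 and 1.38 FPKM in bmECs (-0.68 ± 0.16, adjusted p = 0.0162). For none of the 3 enzymes did the regions overlap, and the P4ha2 call was lost without bmEC library 1 (adjusted p = 0.0554). The partner genes P4ha1 (17.9 to 22.8 against 22.2 to 26.3 FPKM) and Plod1 (35.8 to 49.4 against 39.0 to 49.5 FPKM) were expressed at higher levels and were not called. Lox, the founding lysyl oxidase, measured 3.38 ± 1.94 FPKM in mpECs and 1.44 ± 0.62 FPKM in bmECs (mean ± SD, n = 3) and did not pass the test (-0.79 ± 0.32, adjusted p = 0.115), and its highest value by far was 5.59 FPKM in mpEC library 1. In 2 of 14 alternative analyses Lox was called lower in bmECs (lowest adjusted p = 0.0157).

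Osteoblast markers moved with the enzymes that were lower in bmECs. The summed level of the 10 osteoblast markers was 1001, 465 and 260.4 FPKM in mpEC libraries 1, 2 and 3 and 45.6 to 60.9 FPKM in bmECs, with 6 of 8 tested markers called lower in bmECs and none higher. Chondrocyte markers summed to 17.2 to 19.4 FPKM in mpECs and to at most 0.182 FPKM in bmECs. The mpEC library with the most osteoblast marker RNA also had the highest P4ha2, Plod2 and Lox. It was the highest mpEC library for summed chondrocyte, erythroid, neutrophil, macrophage and B-cell markers as well. Between mpEC libraries 2 and 3, P4ha2 did not follow the osteoblast markers, at 2.31 and 2.67 FPKM. The part of any of these cell types in the values of P4ha2, Plod2 and Lox was not tested. In bulk libraries fewer cells of a type and less RNA per cell cannot be told apart.

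Genes of mitochondrial turnover were higher in bmECs for both BNIP3 family receptors. Bnip3, a mitophagy receptor of the outer mitochondrial membrane, measured 13.0, 13.7 and 11.1 FPKM in mpECs and 26.9, 28.1 and 21.8 FPKM in bmECs (0.96 ± 0.12, adjusted p = 0.00116). Its paralogue Bnip3l was higher from a larger base, with 114.8, 95.5 and 90.7 FPKM against 150.6, 155.7 and 119.8 FPKM (0.50 ± 0.13, adjusted p = 0.0283), and bmEC library 3 lay just above the highest mpEC library. BNIP3L also clears mitochondria from maturing red cells, and erythroid markers summed to 28301 to 52917 FPKM in mpECs and 42581 to 60489 FPKM in bmECs, where 1 of 8 markers was called higher. The share of that RNA in the Bnip3l values was not tested. The Bnip3l call was lost without mpEC library 2 or 3 or bmEC library 1 or 2 (adjusted p from 0.0801 to 0.102). It held in 9 of 15 alternative analyses in all. The mitochondrial proteins Fam162a (68.0 to 82.4 against 65.7 to 71.1 FPKM) and Higd1a (24.3 to 28.5 against 23.7 to 26.0 FPKM), which acts at the respiratory chain, overlapped between regions.

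Of the regulators of stress and growth, Cited2 differed most. CITED2 competes with HIF for the co-activator p300/CBP and so dampens HIF output, and its gene measured 8.22, 7.64 and 6.07 FPKM in mpECs and 30.6, 27.7 and 17.4 FPKM in bmECs (1.63 ± 0.20, adjusted p = 0.00109). Ndrg1, a growth and differentiation gene, measured 24.1, 28.4 and 26.3 FPKM against 37.5, 39.9 and 33.1 FPKM (0.47 ± 0.10, adjusted p = 0.0125). Neither gene overlapped between regions. Bhlhe40, a repressor of the circadian clock family, measured 24.8, 25.1 and 35.3 FPKM in mpECs and 50.8, 53.7 and 34.6 FPKM in bmECs (0.68 ± 0.19, adjusted p = 0.0379). Its regions overlapped, because bmEC library 3 lay below mpEC library 3, and the call was lost without mpEC library 1 or 2 or bmEC library 1 or 2 (adjusted p from 0.101 to 0.118) and held in 6 of 15 alternative analyses in all. Ddit4, an inhibitor of mTORC1, was not called (-0.38 ± 0.28, adjusted p = 0.369), and neither was Ankrd37, an ankyrin repeat protein (0.45 ± 0.23, adjusted p = 0.204, and 0.0354 without mpEC library 3), nor the MYC antagonist Mxi1.

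bmEC library 3 stood apart from the other bmEC libraries in immediate-early and heat-shock genes that cell isolation is known to induce. The 12 such genes summed to 3046 and 3601 FPKM in bmEC libraries 1 and 2, to 1092 FPKM in library 3 and to 909 to 1350 FPKM in mpECs. The same library was the lowest of the bmECs for 8 of the 9 members called higher, Loxl2 being the exception. It was also the lowest bmEC library for summed erythroid (42581 FPKM), macrophage (2024 FPKM) and endothelial markers (1801 FPKM). Neutrophil and B-cell markers were lowest in bmEC library 2. Apold1, an endothelial early-response gene, varied widely, with 28.4, 30.4 and 61.6 FPKM in mpECs and 60.8, 89.9 and 19.4 FPKM in bmECs (0.33 ± 0.53, adjusted p = 0.695). Whether isolation or the mix of cells contributes to these values was not tested.

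Among secreted factors, Trf had the largest log2 fold change between regions of the 26 tested members. It encodes the iron carrier transferrin and measured 16.3, 18.4 and 15.9 FPKM in mpECs and 78.9, 77.3 and 70.0 FPKM in bmECs (2.10 ± 0.09, adjusted p = 1.51e-05). Of the Trf exon bases, 63.5% are shared with another annotated gene on the same strand, Gm20425, and how reads there were divided is not given in the sources used here. Stc1, a stanniocalcin with roles in calcium and phosphate balance, had ranges that did not overlap but a wide spread, with 18.1, 21.6 and 46.7 FPKM in mpECs and 49.5, 59.3 and 166.2 FPKM in bmECs. It was not called (1.54 ± 0.49, adjusted p = 0.0547). Library 3 was the highest in each region, and Stc1 passed the test without mpEC library 3 (adjusted p = 0.0351) or bmEC library 1 (adjusted p = 0.0466). Stc1 was called in 4 of 15 alternative analyses in all, among them the fit with a term for the replicate number. Its paralogue Stc2 lay under the filter at 0.0581 to 0.109 FPKM in mpECs and 0.352 to 0.511 FPKM in bmECs, and was called higher when no filter was applied (adjusted p = 0.0140). The cytokine gene Mif stayed within 92.4 to 122.6 FPKM across both regions.

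In metabolism and redox, Hmox1 and Insig2 were higher in bmECs. Hmox1, the inducible heme oxygenase, measured 36.7, 34.4 and 33.5 FPKM in mpECs and 94.2, 73.5 and 58.1 FPKM in bmECs (1.06 ± 0.16, adjusted p = 0.00255). Insig2, which holds the sterol sensor SCAP in the endoplasmic reticulum, measured 13.9, 16.0 and 14.8 FPKM against 21.3, 22.7 and 17.4 FPKM (0.43 ± 0.12, adjusted p = 0.0318). Both were clear of overlap, and the Insig2 call was lost without mpEC library 1 or 3 or bmEC library 1 or 2 (adjusted p from 0.0810 to 0.105). That call held in 9 of 15 alternative analyses in all. HMOX1 is also a target of NRF2 and abundant in macrophages that clear red cells. Of 5 other NRF2 targets tested none was called higher in bmECs and 1 was lower. Regions did not overlap for 2 of the 5 that were higher and 1 that was lower. Of 8 macrophage markers 2 were higher (Vcam1, Mrc1) and 1 was lower (Lyz2). Their summed level was 1603 to 2272 FPKM in mpECs and 2024 to 2475 FPKM in bmECs. The study also shows Vcam1 among genes that are higher in bmECs, and whether its RNA here came from macrophages was not tested. Neither the part of NRF2 in the Hmox1 values nor that of macrophage RNA in the Hmox1 and Trf values was tested. The demethylase Kdm3a, the hydroxylase Jmjd6, Narf and the oxidoreductase gene Ero1l were not called, and Car9, Ak4, Vldlr, Rora and Bhlhe41 lay below 1 FPKM in every library of both regions and overlapped. Tmem45a was at 0.230 to 0.927 FPKM in mpECs and at most 0.159 FPKM in bmECs, under the filter.

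**Figure D2:**
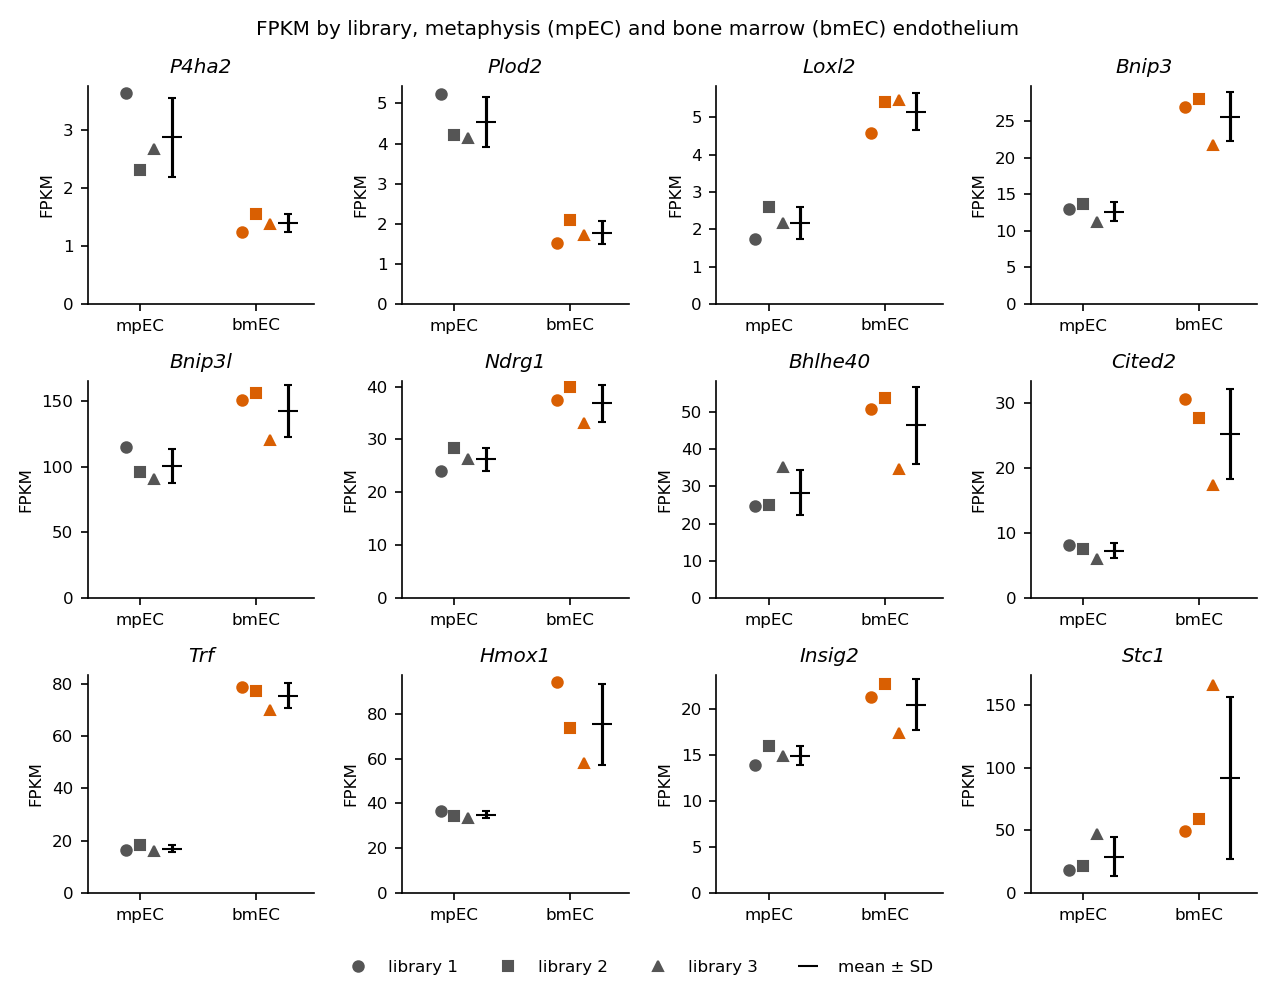
FPKM (y axes, each from 0) in the 3 mpEC and 3 bmEC libraries for the 11 called members and Stc1, with mean ± SD. P4ha2 and Plod2 lie lower in bmECs, and the other panels lie higher except where bmEC library 3 (triangle) of Bhlhe40, at 34.6 FPKM, falls among the mpEC values.

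The rest of the HIF pathway was read from a list of 46 genes (HIF subunits, oxygen sensors, angiogenic and glycolytic targets), of which 37 were tested. In bmECs 13 were higher and 7 were lower, against 13.0% and 10.5% of all tested genes. Hif1a, the oxygen-regulated subunit, was 48.5 ± 3.44 FPKM in mpECs and 94.7 ± 10.3 FPKM in bmECs (n = 3, 0.95, adjusted p = 0.000528). The most changed in each direction were Angptl4, a lipoprotein lipase inhibitor (1.49, adjusted p = 0.00236), and Edn1, the vasoconstrictor endothelin (-2.23, adjusted p = 0.000502). Of 18 glycolytic genes tested 6 were higher and 1 was lower, beside 9 higher and 2 lower of the 26 members.

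In the Yap1/Taz comparison, Stc1 and Apold1 were the members that passed the test, and both were higher in the libraries labelled Yap1/Taz iΔEC. Of 27 tested members 2 were called higher, against 0.883% of all 11320 tested genes. No member was called lower by limma, against 0.424% of all tested genes, and 7 members had an unadjusted p under 0.05, beside 17.9% of all tested genes. The median log2 fold change was 0.12 for the members and close to 0 for all tested genes. The groups did not overlap for 8 members that were higher and 1 that was lower, beside 12.3% and 11.3% of all tested genes. Stc1 and Apold1 also stand in panels that the study drew from these libraries, so their direction is not independent evidence.

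Stc1 measured 4.67, 4.35 and 3.67 FPKM in control and 10.8, 21.5 and 20.8 FPKM under the mutant label (1.78 ± 0.22, adjusted p = 0.0169). Apold1 measured 10.8, 11.3 and 9.15 FPKM in control and 20.8, 33.1 and 32.6 FPKM under the mutant label (1.36 ± 0.17, adjusted p = 0.0169). For both genes the first of the labelled libraries was the lowest of its group and still above every control. The same library was the lowest of its group for Wwtr1 and had 31.4 FPKM of summed osteoblast markers, against 13.2 and 15.3 FPKM in the other two and 42.2 to 61.8 FPKM in control. Over these markers 3 of 7 tested were called lower under the mutant label and none higher. Neither call held when labelled library 2 or 3, or control library 3, was left out, with adjusted p from 0.0568 to 0.0992 in those analyses. Stc1 also lost its call without control library 2 (adjusted p = 0.0564), and both lost it when no filter was applied (adjusted p = 0.0679). Isolation-induced genes summed to 2175 to 2283 FPKM in control and 2307 to 2832 FPKM under the mutant label, with 1 of 12 called higher, and their part in Apold1 was not tested. Endothelial markers summed higher under the mutant label too, with 8 of 8 positive and 1 called, and their part in Stc1 and Apold1 was not tested.

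Bhlhe40 and Jmjd6 came closest to the threshold without passing it. Bhlhe40 measured 8.95, 14.2 and 9.43 FPKM in control and 15.4, 19.6 and 17.9 FPKM under the mutant label (0.67 ± 0.17, adjusted p = 0.0764). Jmjd6, a JmjC-domain oxygenase, measured 12.2, 12.4 and 11.8 FPKM and 16.1, 18.2 and 16.0 FPKM (0.43 ± 0.10, adjusted p = 0.0654). In both the groups did not overlap, and neither was called in any of 15 alternative analyses. Plod1 had a log2 fold change of 0.40 (adjusted p = 0.0944) and Fam162a of -0.38 (adjusted p = 0.113). Ndrg1 separated labelled libraries 2 and 3, at 22.8 and 24.2 FPKM, from library 1 at 13.4 FPKM, which lay below the control range of 14.9 to 16.4 FPKM (0.32 ± 0.19, adjusted p = 0.405). Without that library Ndrg1 passed the test (adjusted p = 0.0311). Insig2 had a log2 fold change of -0.32 (adjusted p = 0.368), and the other tested members had smaller ones. The mitophagy receptors Bnip3 and Bnip3l overlapped between groups, as did Trf, Cited2, Hmox1 and Mif. Hmox1 ranged from 62.1 to 155.1 FPKM in control alone. P4ha2 and Lox lay under the filter in these libraries, P4ha2 at no more than 0.349 FPKM and Lox at no more than 0.579 FPKM.

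**Figure D3:**
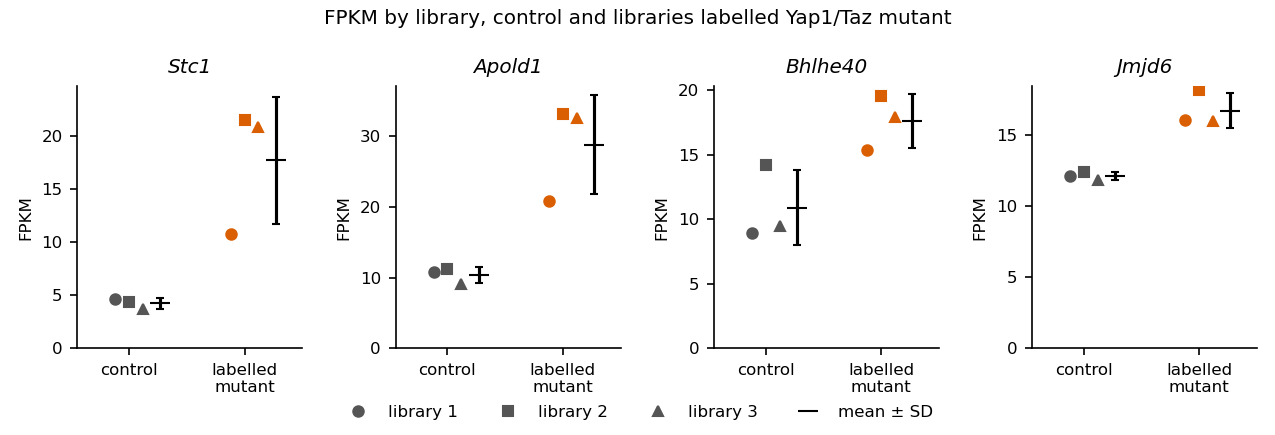
FPKM (y axes, each from 0) in the 3 control libraries and the 3 libraries labelled Yap1/Taz iΔEC for Stc1, Apold1, Bhlhe40 and Jmjd6, with mean ± SD. In each panel every labelled library lies above every control library, and Stc1 and Apold1 are the called genes (adjusted p = 0.0169 for each).

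Of 40 other HIF pathway genes tested, Vegfa was the single call, against 0.883% of all tested genes called higher and 0.424% lower. It measured 21.7 ± 5.45 FPKM in control and 52.8 ± 9.16 FPKM under the mutant label (n = 3, 1.26, limma adjusted p = 0.0235). An unadjusted limma p under 0.05 was found for 12 of the 40, beside 17.9% of all tested genes. These included 8 of 12 angiogenic targets tested, of which 11 had positive log2 fold changes, with a median of 0.49. By limma 0 of 20 glycolytic genes were called, 2 of them at an unadjusted p under 0.05. The voom count model on recovered reads called 4 of the 40 higher and 1 lower.

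In Lats2 iΔEC ECs the members moved in both directions. Ankrd37, Mif, Apold1, Higd1a, P4ha2, Fam162a and Plod2 were higher than in control, and Trf, Cited2, Kdm3a and Hmox1 were lower. Of 25 tested members 7 were called higher and 4 lower, against 11.8% and 9.98% of all 12453 tested genes. The median log2 fold change was -0.02 for the members and close to 0 for all tested genes. The groups of 2 libraries did not overlap for 9 members that were higher and 10 that were lower, beside 34.0% and 34.2% of all tested genes. With either control library left out, no gene of the whole table was called and so no member, and the lone control was then assumed to vary like the other group. With no filter on low values, 3 members were called higher and 3 lower, the calls of P4ha2, Plod2, Higd1a, Mif and Cited2 being lost (adjusted p from 0.0514 to 0.0858), and a stricter call (adjusted p under 0.01 and an absolute log2 fold change of at least 0.5) left 0 in either direction. Without Lats2 iΔEC library 2, Ankrd37 and Mif were called higher and Trf lower, which makes 2 and 1, and without library 1 the calls of P4ha2, Plod2 and Cited2 were lost (adjusted p from 0.0572 to 0.0684).

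The enzymes of collagen modification that were lower in bmECs were higher here. P4ha2 measured 2.83 and 3.91 FPKM in control and 7.18 and 8.02 FPKM in Lats2 iΔEC (0.99 ± 0.18, adjusted p = 0.0237), and Plod2 measured 2.16 and 1.93 FPKM against 3.93 and 4.42 FPKM (0.76 ± 0.18, adjusted p = 0.0369). Osteoblast markers were not distributed this way, with a summed level of 84.9 and 13.9 FPKM in control and 43.6 and 69.4 FPKM in Lats2 iΔEC and 1 of 6 called higher. Stromal and pericyte markers did move with these enzymes, from 54.2 and 67.6 FPKM to 111.3 and 108.8 FPKM, with 4 of 7 called higher, and their part was not tested. P4ha1 stayed within 30.2 to 30.9 FPKM in the 4 libraries, and Plod1 and Loxl2 were not called.

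Of the 4 mitochondrial members, Fam162a and Higd1a were higher and Bnip3 and Bnip3l were not called. Fam162a, a mitochondrial protein of the hypoxic cell death response, measured 46.2 and 41.6 FPKM in control and 77.2 and 91.7 FPKM in Lats2 iΔEC (0.93 ± 0.14, adjusted p = 0.0154). Higd1a measured 6.97 and 8.53 FPKM against 13.9 and 22.2 FPKM (1.09 ± 0.25, adjusted p = 0.0349). Bnip3 measured 9.76 and 9.20 FPKM against 12.2 and 22.4 FPKM and was not called (0.75 ± 0.28, adjusted p = 0.12), except without Lats2 iΔEC library 1 (adjusted p = 0.0229). Library 2 of Lats2 iΔEC was the higher for all 3 genes. Bnip3l overlapped at 32.98 to 36.4 FPKM in control and 31.4 to 35.0 FPKM in Lats2 iΔEC.

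Ankrd37 had the largest log2 fold change of FPKM + 1 among the tested members of any comparison. It measured 0.716 and 1.32 FPKM in control and 12.5 and 32.6 FPKM in Lats2 iΔEC (3.42 ± 0.45, adjusted p = 0.0125). Mif, a cytokine and tautomerase, measured 36.6 and 32.2 FPKM in control and 92.8 and 184.2 FPKM in Lats2 iΔEC (1.90 ± 0.33, adjusted p = 0.0195). Apold1 measured 8.87 and 11.8 FPKM against 29.6 and 32.97 FPKM (1.52 ± 0.17, adjusted p = 0.0101), close in size to its change under the Yap1/Taz mutant label, although no test compared these experiments. In Ankrd37 and Mif, library 2 of Lats2 iΔEC stood well above library 1, and in Apold1 the libraries lay close together.

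Exon length went along with the change in this comparison. The median log2 fold change of all tested genes was 0.34 below 1000 exon bases and 0.22 between 1000 and 2000 bases, and it was -0.09 between 4000 and 8000 bases. Mif has 745 exon bases, Fam162a 850 and Ankrd37 1539, all short, while Higd1a has 3040, Apold1 3567, Plod2 5392 and P4ha2 6239. When the trend with length and GC content was removed from each library, an analysis added after the data were seen, 7 members were called higher and 4 lower, with the log2 fold change of Fam162a at 0.56 and that of Mif at 1.58. Of the members called lower, Hmox1 has 1751 exon bases, Cited2 2457, Trf 3320 and Kdm3a 8225. The part of exon length in these changes was not otherwise tested. Some exon bases of Ankrd37 (26.4%), Higd1a (22.5%), Bnip3 (22.3%) and Fam162a (19.8%) overlap a gene on the other strand, and whether counting used strand is not given in the sources used here.

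**Figure D4:**
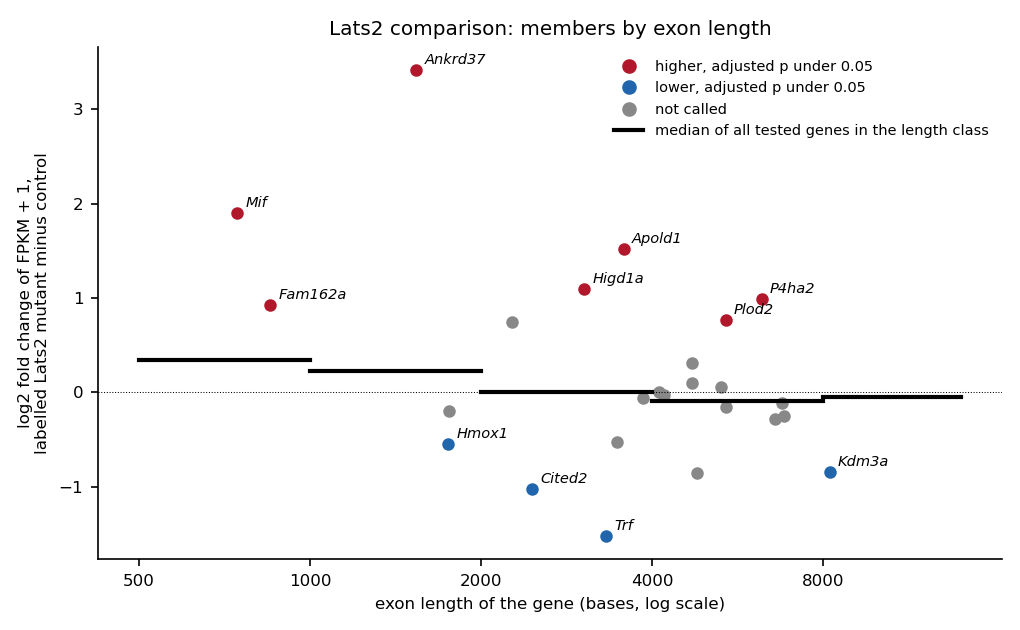
The log2 fold change of FPKM + 1, Lats2 iΔEC minus control (y axis), of the 25 tested members against exon length in bases (x axis, log scale), with black bars for the median of all tested genes in each length class. The bars fall from 0.34 for the shortest genes to below 0 above 4000 bases, and called members lie on both sides of the bars.

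The members that were lower in Lats2 iΔEC included 3 that were higher in bmECs. Trf measured 37.5 and 30.3 FPKM in control and 12.6 and 9.77 FPKM in Lats2 iΔEC (-1.52 ± 0.18, adjusted p = 0.0105). Cited2 measured 50.9 and 38.9 FPKM against 19.0 and 23.9 FPKM (-1.03 ± 0.19, adjusted p = 0.0224). Hmox1 measured 61.0 and 56.6 FPKM against 40.8 and 38.9 FPKM (-0.55 ± 0.11, adjusted p = 0.0299). In none of them did the groups overlap. Kdm3a, a histone H3 lysine 9 demethylase that needs oxygen, measured 17.6 and 14.8 FPKM in control and 8.78 and 8.25 FPKM in Lats2 iΔEC (-0.85 ± 0.14, adjusted p = 0.0189). Narf, a prelamin-binding protein, measured 17.6 and 14.6 FPKM against 10.5 and 6.65 FPKM and did not pass the threshold (-0.86 ± 0.23, adjusted p = 0.0548). In 4 of 13 alternative analyses Narf was called lower, with a lowest adjusted p of 0.0169. Insig2 was not called (-0.52 ± 0.16, adjusted p = 0.0731), though 1 of 13 alternatives called it. Bhlhe40 was not called in the other direction (0.31 ± 0.18, adjusted p = 0.268).

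Summed blood-cell markers were lower in the same libraries as Trf and Hmox1. Summed erythroid markers were 3770 and 2526 FPKM in control and 1428 and 276.2 FPKM in Lats2 iΔEC, with 2 of 8 called lower. Macrophage markers summed to 1324 and 930.0 FPKM against 392.0 and 142.6 FPKM (2 of 7 lower). Single macrophage markers were mixed, with 3 positive and 4 negative log2 fold changes. Groups did not overlap for 2 of these that were higher and 3 that were lower. Neutrophil markers summed to 2873 and 1918 FPKM against 843 and 703 FPKM (5 of 7 lower). B-cell markers summed to 93.2 and 82.5 FPKM against 30.9 and 23.2 FPKM (5 of 6 lower). The part of blood-cell RNA in the values of Trf, Hmox1, Cited2 and Kdm3a was not tested.

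Several classical HIF targets had a mean under the filter over the Lats2 libraries, and Car9, Stc2, Ak4 and Bhlhe41 of these had groups that did not overlap. Car9, the carbonic anhydrase that exports acid, measured 0.174 and 0.0730 FPKM in control and 0.575 and 1.22 FPKM in Lats2 iΔEC. Stc2 measured 0.155 and 0.0650 FPKM against 0.768 and 1.28 FPKM, Ak4, a mitochondrial adenylate kinase, 0.173 and 0.145 FPKM against 0.456 and 1.73 FPKM, and Bhlhe41, the paralogue of Bhlhe40, 0.0321 and 0.0268 FPKM against 0.465 and 1.44 FPKM. With no filter, none of the 4 was called (adjusted p from 0.0677 for Stc2 to 0.224 for Ak4), and unadjusted p was under 0.05 for Stc2, Car9 and Bhlhe41. Rora, Tmem45a, Vldlr and Lox had groups that overlapped.

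**Figure D5:**
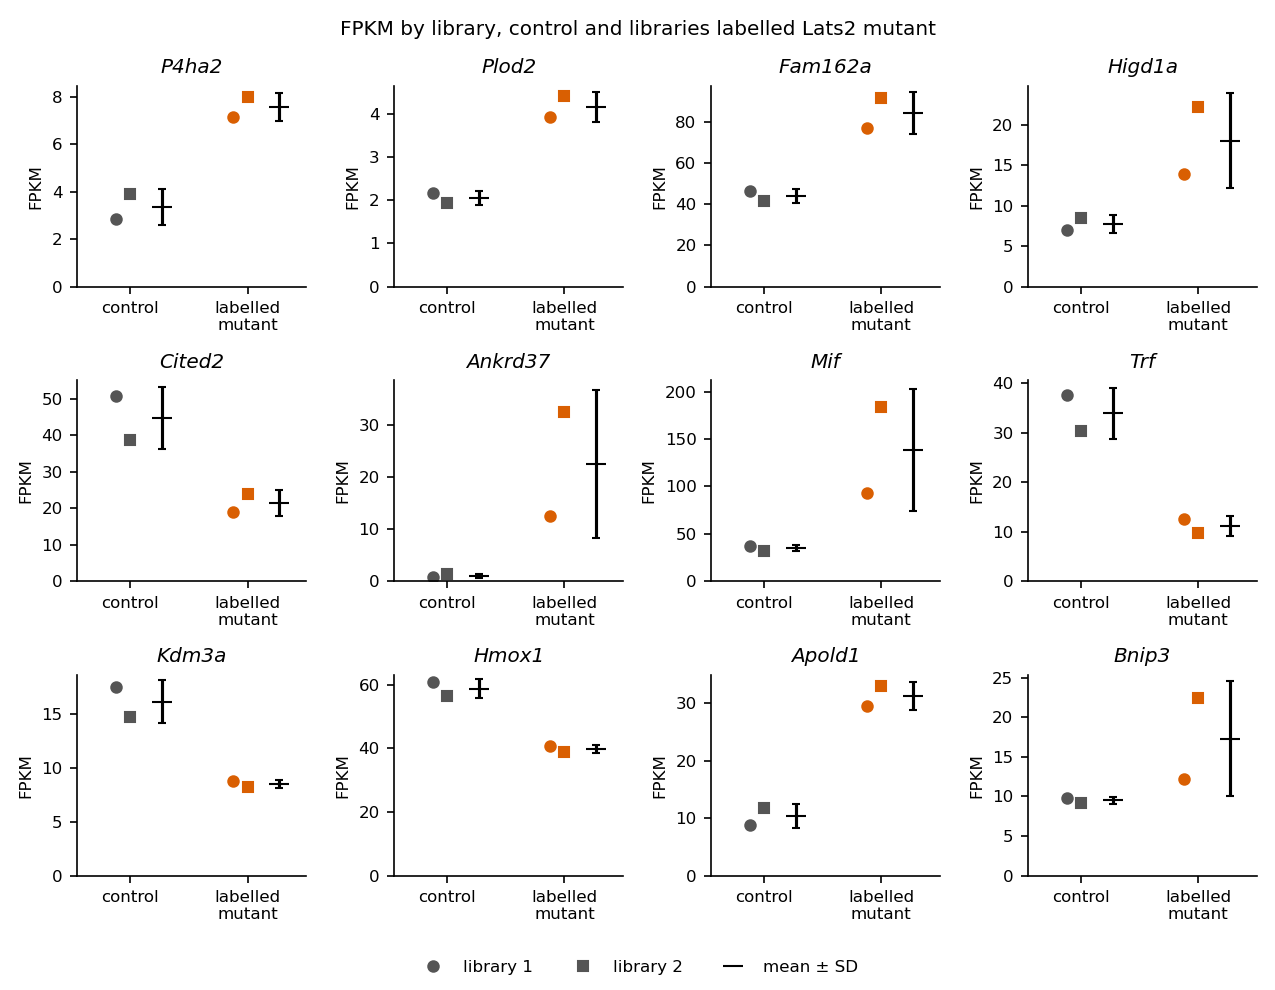
FPKM (y axes, each from 0) in the 2 control and 2 Lats2 iΔEC libraries for the 11 called members and Bnip3, with mean ± SD. Library 2 of Lats2 iΔEC (square) lies far above library 1 for Ankrd37, Mif, Higd1a and Bnip3, while the 2 libraries lie close together for P4ha2, Plod2, Trf, Kdm3a, Hmox1 and Apold1.

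Among the other HIF pathway genes most calls were upward. Of 40 tested, 20 were called higher and 4 lower, against 11.8% and 9.98% of all tested genes. Of the 18 glycolytic targets among them 10 were higher and 1 was lower. The most changed were Angpt2, the destabilising ligand of the TIE2 receptor, at 8.11 ± 0.07 FPKM in control and 325.2 ± 217 FPKM in Lats2 iΔEC (n = 2, 4.98, adjusted p = 0.00816), and Vegfa, at 7.63 ± 0.21 FPKM and 1.16 ± 0.19 FPKM (n = 2, -1.998, adjusted p = 0.00758). Hif1a, Epas1 and Arnt had lower values in both Lats2 iΔEC libraries than in both controls, and none was called by limma although all 3 had an unadjusted p under 0.05. Fewer of the 40 were called with no filter on low values and with the stricter call. Exon length, which went along with the change over all tested genes, was not taken into account in these counts. No test compared the lists.

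Across experiments, which share no libraries, 5 members were called both in bmECs against mpECs and in Lats2 iΔEC against control, namely P4ha2, Plod2, Cited2, Trf and Hmox1, and all 5 had opposite signs. This went with the whole table: of 972 genes called in both comparisons, 919 (94.5%) had opposite signs. Over the 25 members tested in both, 16 (64.0%) had opposite signs, beside 63.0% of the 10471 genes tested in both. Apold1 was the member called in the same direction in 2 comparisons, higher under the Yap1/Taz mutant label and in Lats2 iΔEC. Stc1, higher under the Yap1/Taz mutant label, measured 16.0 and 14.6 FPKM in the Lats2 controls and 13.2 and 17.2 FPKM in Lats2 iΔEC, with no call.

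The 11 tested members with no call in any comparison were P4ha1, Plod1, Lox, Ddit4, Mxi1, Jmjd6, Narf, Car9, Ero1l, Ak4 and Vldlr. P4ha1 and Ero1l, which serve the hydroxylation and disulfide bonding of secreted proteins, were expressed in all 16 libraries, with a lowest value of 8.39 FPKM for Ero1l. Levels could be compared only within a table, since the 3 tables were scaled separately.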

How the data were processed

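Per the study's methods and the submitters' processing notes, TopHat aligned the reads to GRCm38 and HTSeq 0.6.1 counted them per gene, and the authors deposited FPKM values. The FPKM step and the strand setting of counting are not given in the sources used here. The 3 tables were scaled separately and were tested separately. From these, log2(FPKM + 1) was computed for genes whose mean reached 1 FPKM, and limma 3.58.1 (R 4.3.3) was fitted with 1 term for the group, empirical Bayes with a trend and Benjamini-Hochberg adjustment over all genes tested. All p-values are two-sided. The fit was also run on simulated counts with equal dispersion for every gene and no length trend or differences in cell content between libraries. That run cannot show how often calls on these libraries are wrong. Tables and plots were made with Python 3.11.15.

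The members, the gene lists and the tests were chosen with earlier results of these data known. Every member is accounted for: those called are given per library, and uncalled members are given with a log2 fold change where it reached 0.3. Stc2 and the other members under the filter were singled out after their values were seen.

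Read depth was estimated from the FPKM of low genes and exon lengths of GENCODE vM21, where 62.7% to 70.2% of low values came within 0.02 of a whole read (4.0% by chance), so recovered reads are approximate. Ero1l is listed as Ero1a in the annotation.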

Additional observations from a re-analysis of the deposited data

How the results depend on the processing

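Calls of single members were mostly kept when a setting changed: of 212 values for the 24 calls, 193 stayed past the threshold and 19 did not, and of 132 values for 15 uncalled differences 8 passed it. With 1 library left out, 69 of 122 values of called members stayed past the threshold. The only change of sign over these analyses was Apold1 in bmECs against mpECs, at -0.12 without bmEC library 2, within a range from -0.12 to 0.95. The cause was not tested for any of these changes.

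For bmECs against mpECs, leaving out 1 library gave 6 to 9 members higher and 1 to 2 lower, and 7 to 11 other HIF pathway genes higher and 3 to 6 lower. A stricter call (adjusted p under 0.01 and an absolute log2 fold change of at least 0.5) left 5 and 1 members and 6 and 3 other genes, higher and lower. A filter at 5 FPKM, which tests fewer genes, left 0 members and 3 other genes lower, and no filter left 4 other genes lower. Voom on recovered reads called 4 members lower and 6 other genes higher.

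For the Yap1/Taz libraries, leaving out 1 library gave 0 to 3 members and 0 to 4 other genes higher. It gave 0 members without control library 3 or labelled library 2 or 3, and 3 without labelled library 1. No filter and the stricter call each left 0 members and 0 other genes higher, and a fit with no trend left 0 other genes higher. Voom called 4 other genes higher and 1 lower, and a filter at 5 FPKM and quantile normalization each called 1 lower.

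For Lats2, leaving out 1 library gave 0 to 6 members higher and 0 to 4 lower, and 0 to 22 other genes higher and 0 to 4 lower, with 0 in each without either control library. No filter left 3 members and 10 other genes higher and 2 other genes lower. The stricter call left 0 members in either direction and 3 and 1 other genes, and voom called 11 other genes lower.

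With the replicate number as a replicate block, 10 members were higher and 3 lower in bmECs, 2 and 0 under the Yap1/Taz mutant label, and 6 and 5 in Lats2 iΔEC, while other HIF pathway genes gave 14 and 7, 1 and 0, and 22 and 4. The numbers were not taken to pair libraries, since same-numbered libraries had correlations of their deviations of 0.307, 0.088 and 0.102 (mpEC and bmEC), -0.175, -0.123 and -0.155 (Yap1/Taz) and 0.065 and 0.065 (Lats2), and for mpEC and bmEC and for Yap1/Taz not every library correlated best with its own number. Stc1 was called higher in bmECs with the block (adjusted p = 0.000143, with 0.000143 to 0.143 over its 15 alternatives). Depth limits members under the filter, where few reads lie behind each value.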
